A study of Homo sapiens with 2 samples.

Results

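The heparan sulfate synthesis enzymes described here are EXT1, EXT2, EXTL2, EXTL3, NDST1, NDST2, HS2ST1, HS6ST1, GLCE and XYLT2. These 10 genes were found by their GENCODE release 29 symbols among 49627 genes listed in the deposited transcript files, and all 10 are among the 11186 genes with a mean of at least 1 FPKM, a unit that divides the fragments of a transcript by its length and by the size of the library. The set was put together after values of these libraries were known, and the EXT1 values in particular led to its choice, so all values of the FPKM comparison are given as a description. RNA was sequenced from MDA-MB-231, a human line of triple-negative breast cancer grown in Leibovitz medium with serum and without CO2, 1 library from cells in which RBMS1 was stably knocked down and 1 from control cells. The study made its knockdown cells by lentiviral infection with shRNA in the pLKO.1 vector, and which shRNA the sequenced cells carried is not given in the sources used here. RBMS1 is an RNA-binding protein, and the assay asked which transcripts differ when it is depleted. With 1 library per group there is no replicate, so no test between the groups was made. The only errors are the intervals that Cufflinks, the program that assembled and quantified the transcripts, gave within each library. The interval of a gene is the sum of the lower and of the upper ends over its transcripts, which Cufflinks did not itself give. These intervals do not cover differences between cultures.

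Heparan sulfate is a long, sulfated sugar chain carried by proteoglycans of the cell surface and the matrix, where it binds growth factors and chemokines. A xylose residue added to a serine of the core protein starts a short linker, and an N-acetylglucosamine added to the linker commits the chain to heparan sulfate. A complex of EXT1 and EXT2 then lengthens the chain with alternating glucuronic acid and N-acetylglucosamine. NDST enzymes replace acetyl by sulfate groups, GLCE turns glucuronic into iduronic acid, and HS2ST1 and HS6ST1 add further sulfate groups to the sugars.

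RBMS1 was lower in the library labelled knockdown, at 3.76 FPKM (within-library interval 3.12 to 5.39) against 24.1 FPKM (21.7 to 27.7) in the control, a log2 ratio of −2.40 with 1 FPKM added to both values. The libraries were of similar depth, with a median coverage per FPKM of 12.4 in the knockdown and 11.4 in the control, and the median log2 ratio of the 11186 genes was 0.02. Of the markers of the cell line, VIM was listed at 496 and 563 FPKM in the knockdown and control libraries, and AXL at 251 and 229 FPKM. CD44 was at 154 and 204 FPKM, EGFR at 26.1 and 33.0 FPKM and CAV1 at 168 and 112 FPKM. All 5 had a mean of at least 1 FPKM, 3 lower and 2 higher in the knockdown. Of 7 epithelial and hormone receptor markers, ESR1, PGR and CDH1 were at no more than 0.0996 FPKM, and the other 4 had a mean of at least 1 FPKM. These were KRT18 at 162 and 190 FPKM, ERBB2 at 7.5 and 7.0 FPKM, EPCAM at 1.93 and 3.66 FPKM and GATA3 at 2.11 and 1.56 FPKM. Of 10 markers of blood, stromal and endothelial cells none had a mean of at least 1 FPKM, their summed level was 1.07 and 0.728 FPKM, and 4 of them were listed at 0 in both libraries. In bulk RNA, fewer cells expressing a gene and less RNA per cell cannot be told apart.

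Among the enzymes, EXT1 was the only one at least 2-fold apart between the libraries by FPKM. EXT1 was lower in the knockdown, whereas the other 9 lay within log2 ratios of −0.35 to 0.50. Thus 1 of 10 members was at least 2-fold lower, beside 2.8% of all genes, and 0 of 10 were at least 2-fold higher, beside 2.96% of all genes. Of the members, 5 were lower and 5 higher in the knockdown, and their median log2 ratio was 0.02, the same as that of all genes. The summed level of the 9 enzymes other than EXT1 was 71.2 FPKM in the knockdown and 71.3 FPKM in the control. EXT1 made up 16.2% of the summed FPKM of the 10 enzymes in the knockdown and 35.0% in the control. The within-library intervals were apart for EXT1 and EXT2, both lower, and overlapped for the other 8. Over all genes, the intervals were apart and lower for 11.5% and apart and higher for 13.3%.

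**Figure D1:**
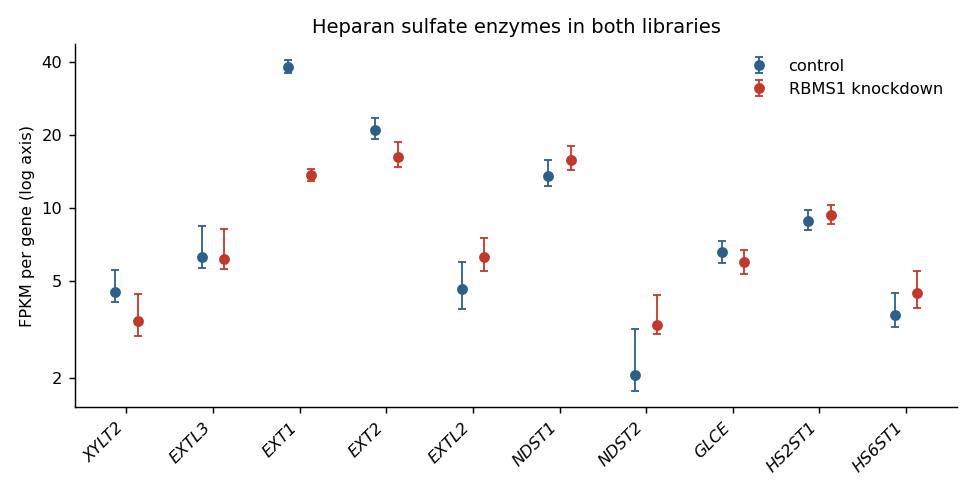
FPKM of each heparan sulfate enzyme (log axis) in the control library (blue) and the RBMS1 knockdown library (red), in the order of their roles. Bars give the within-library Cufflinks intervals summed over the transcripts of a gene, with 1 library per group. EXT1 lies at 38.4 FPKM in the control and 13.7 FPKM in the knockdown, and the points of the other 9 enzymes lie close to each other.

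EXT1, the glycosyltransferase that together with EXT2 forms the heparan sulfate polymerase, is encoded on the minus strand of chromosome 8 (GRCh38, 117794490 to 118111853). It was listed at 13.7 FPKM (13.03 to 14.6) in the knockdown and at 38.4 FPKM (36.3 to 40.7) in the control. The log2 ratio was −1.42, the 211th lowest of the 11186 genes. The direction, however, depends on which transcripts are counted. In the knockdown library all of the EXT1 value lay on the annotated transcript ENST00000378204, which has 11 exons and 8270 nt, at 13.7 FPKM. In the control library this transcript had only 7.22 FPKM (6.76 to 7.67), and 81.2% of the value lay on a transcript assembled from the reads, at 31.2 FPKM (29.6 to 32.9). Counting reference transcripts alone, EXT1 was therefore higher in the knockdown, at a log2 ratio of 0.84. On that count 1 of 10 members was at least 2-fold lower, beside 5.02% of all genes, and 0 were at least 2-fold higher, beside 5.44%. The lower one was then NDST2, whose annotated transcript was listed at 0 in the knockdown. A gene that was at least 2-fold lower with the assembled transcripts and higher without them was found in 28 cases among all genes, or 0.25%.

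The assembled EXT1 transcript of the control has 15 exons but only 3550 nt. Its 14 introns comprise all 10 annotated introns of EXT1 and 4 that are not annotated, and it ends 32845 nt beyond the annotated end of the gene. It lacks most of the long 3′ UTR, which takes up 5222 of the 8270 nt of the annotated transcript. Summing the FPKM along the annotated transcript, 42.5% of its length (3515 nt) was lower in the knockdown, at 13.7 against 38.4 FPKM, and 57.5% (4755 nt) was higher, at 13.7 against 7.22 FPKM. The coding region was nearly all in the part that was lower, and the last 3653 nt, from nt 4618 to nt 8270, were all in the part that was higher. Each of the EXT1 transcripts counted is spliced at all 10 annotated introns, so the level at every one of these introns was 13.7 FPKM in the knockdown and 38.4 FPKM in the control. One unannotated intron of the control transcript removes the 111 nt from nt 3004 to nt 3114. Since the 3′ UTR begins at nt 3049, this stretch holds the stop codon and the last coding bases. Whether such an RNA was present in the cells was not tested.

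The size of the EXT1 difference also depended on transcript length, because FPKM divides by it. Multiplying each FPKM by the length of its transcript approximates the fragments of the gene scaled to the library alone (FPM). These were 114 FPM in the knockdown and 171 FPM in the control, a log2 ratio of −0.58. For log2 ratios in FPM, 1 FPM was added to both values. This reading was added after seeing the data. On this scale 0 of 10 members were at least 2-fold lower and 0 were at least 2-fold higher, beside 2.96% and 2.82% of all genes. These counts depend on the added 1 FPM, without which NDST2 was above 2-fold, at 209% of the control. A further unspliced or nearly unspliced transcript covers the first exon and shares no intron with EXT1. It had 19.2 FPKM over 9744 nt in the knockdown and 15.8 FPKM over 8356 nt in the control. Adding every assembled transcript that overlaps an exon on the same strand gave 33.0 and 54.2 FPKM for EXT1, a log2 ratio of −0.70. In fragments, the transcript over the first exon had 187 FPM in the knockdown and 132 FPM in the control. EXT1 together with it had 301 and 303 FPM, a log2 ratio of −0.0081, a sum also added after seeing the data. Over the ways of summing that include assembled transcripts, the EXT1 log2 ratio thus ranged from −1.42 to nearly 0. It turned to a higher value in the knockdown by annotated transcripts alone. Over the scalings and pseudocounts its lowest value was −1.48.

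**Figure D2:**
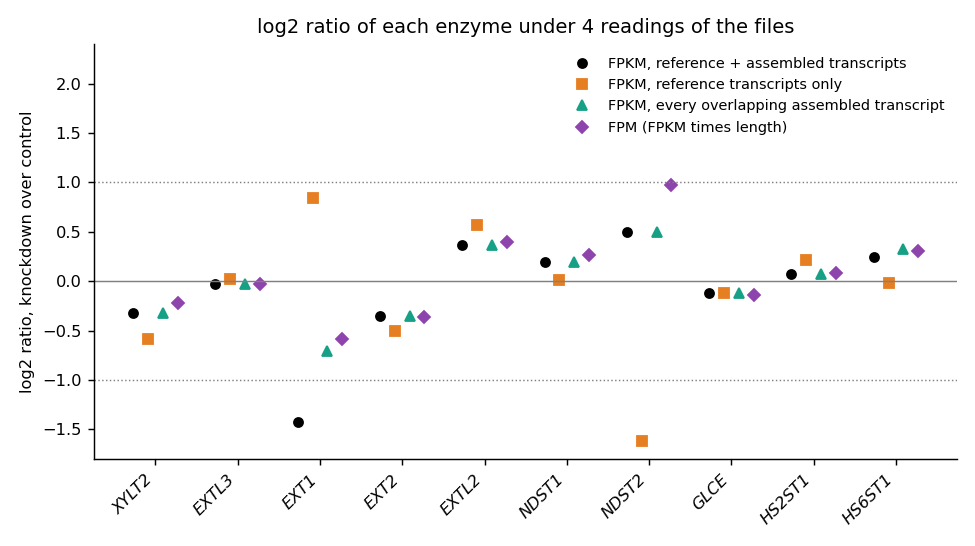
log2 ratio of knockdown over control for each enzyme under 4 readings of the same files, with dotted lines at a 2-fold difference. For each ratio 1 FPKM, or 1 FPM in the FPM reading, was added to both values. EXT1 spans −1.42 to 0.84 and NDST2 −1.61 to 0.97, where the lowest NDST2 point comes from an annotated transcript listed at 0 in the knockdown, and the other 8 enzymes lie between −0.59 and 0.57.

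The introns of EXT1 hold a further signal that no gene value counts. Intron 1 is 272883 nt long, and in both libraries Cufflinks assembled many single-exon transcripts inside it. There were 115 of them over 111004 nt in the knockdown and 103 over 129132 nt in the control. Their mean level was 10.1 FPKM in the knockdown and 10.4 FPKM in the control, a log2 ratio of −0.04. Their summed fragments were 1122 and 1349 FPM, a log2 ratio of −0.27, and this sum moves with the covered length. A transcript is listed only where enough reads were assembled, so the mean level covers only the parts with signal, and the covered share was lower in the knockdown at every distance where there were any. EXT1 ranked 39th by the covered length among 6083 genes with such transcripts in either library. The signal lay toward the start of the gene. In the first 50 kb the transcripts covered 68.8% in the knockdown and 72.1% in the control, and from 50 to 100 kb 83.1% and 87.9%. The covered share was 55.8% and 71.2% from 100 to 150 kb, 13.8% and 25.7% from 150 to 200 kb, and 0.522% and 1.39% from 200 to 250 kb. No other annotated gene overlaps EXT1. Whether these fragments are unspliced EXT1 RNA or other RNA was not tested.

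**Figure D3:**
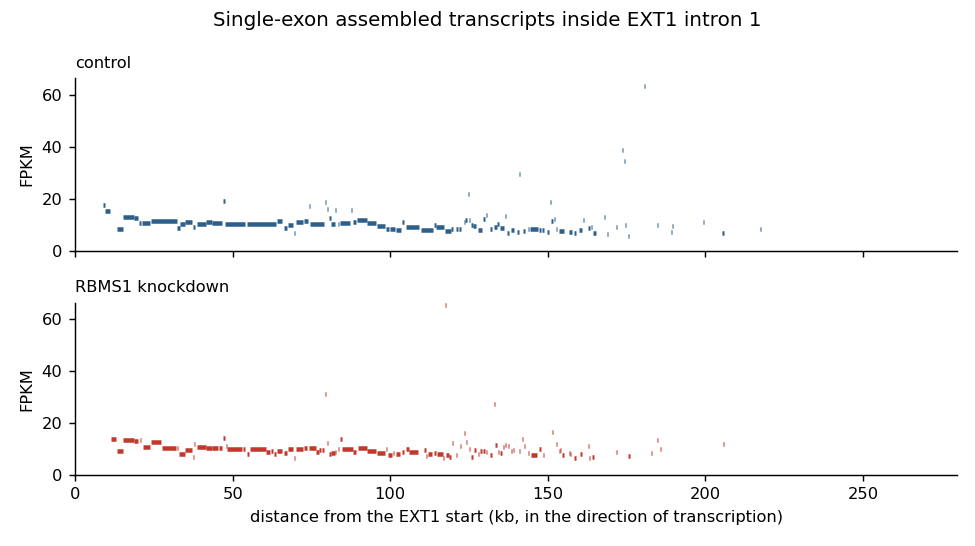
FPKM of each single-exon assembled transcript inside intron 1 of EXT1 by its distance from the EXT1 start, in kb, in the control (top) and RBMS1 knockdown (bottom) libraries, each line spanning the length of 1 transcript. Most lie near 10 FPKM in both libraries (means 10.4 and 10.1), and there are few beyond 200 kb.

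Some other genes had the EXT1 pattern. By the distance in the plane of both log2 ratios (with assembled transcripts, and reference transcripts only), the 5 nearest of 7343 protein-coding genes with at least 5 FPKM in either library were CSTB, ARL3, ZNF593, ECI1 and FKBP4. These were picked by that pattern, so their values are no evidence for it. CSTB, which encodes the protease inhibitor cystatin B, had 28.1 FPKM in the knockdown and 74.7 FPKM in the control, or −1.38 as a log2 ratio. Without assembled transcripts it had 28.1 and 13.8 FPKM, a log2 ratio of 0.97, and by FPM its log2 ratio was 0.01. ARL3, a small GTPase, had 4.44 and 14.3 FPKM, with log2 ratios of −1.49, 0.69 and 0.05 in the same order. ZNF593, ECI1 and FKBP4 had log2 ratios of −1.33, −1.09 and −1.04 by FPKM, and of −0.46, −0.33 and −0.30 by FPM. EXT1, at −0.58, was lower than each of these 5 genes by FPM.

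EXT2, the partner of EXT1 in the polymerase, lies on the plus strand of chromosome 11 (44095549 to 44245429). It had 16.3 FPKM (14.8 to 18.8) in the knockdown and 21.0 FPKM (19.4 to 23.7) in the control, a log2 ratio of −0.35. It was lower in every reading, with −0.51 by reference transcripts only and −0.36 by FPM. Each of its 13 introns was lower too, but the intron levels are sums of the same transcript values and add no separate support. Its most abundant transcript, ENST00000533608, had 12.5 FPKM in the knockdown and 15.4 FPKM in the control. ENST00000343631 had 1.92 and 5.65 FPKM, and a transcript with the same introns was assembled at 1.81 FPKM in the knockdown. The ratio of EXT1 to EXT2 in FPKM was 0.844 in the knockdown and 1.83 in the control. With reference transcripts only these ratios were 0.949 and 0.344, so the order of the libraries turned with the reading. In FPM, which is not per length, the ratios were 2.18 and 2.53, closer to each other than in either of these.

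EXTL3 adds the first N-acetylglucosamine to the linker, and EXTL2 can add a residue to the linker that keeps the chain from being lengthened. EXTL3 had 6.17 FPKM (5.60 to 8.21) in the knockdown and 6.30 FPKM (5.70 to 8.50) in the control, a log2 ratio of −0.03. Both libraries had an assembled EXTL3 transcript that begins in an upstream exon, at 1.17 and 1.41 FPKM. EXTL2 had 6.29 FPKM (5.52 to 7.59) in the knockdown and 4.65 FPKM (3.86 to 6.0) in the control, a log2 ratio of 0.37. Both EXTL2 reference transcripts were higher in the knockdown, ENST00000370113 with 4.53 against 3.18 FPKM and ENST00000370114 with 1.76 against 0.743 FPKM, although a transcript of the same introns as the latter was assembled at 0.720 FPKM in the control. The initiating and the limiting enzyme were thus near or above the control level, within overlapping intervals.

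XYLT2 transfers the xylose that starts the linker. It had 3.43 FPKM (2.98 to 4.46) in the knockdown and 4.52 FPKM (4.10 to 5.57) in the control, a log2 ratio of −0.32. XYLT2 was also lower at all 10 introns, whose levels are sums of the same transcript values. Its paralog XYLT1 was listed at 0 in both libraries. With the linker enzymes, 4 of the 5 genes with a mean of at least 1 FPKM were lower and 1 was higher. By 2-fold, 0 were lower and 0 higher, beside 2.8% and 2.96% of all genes. B4GALT7, which adds the first galactose of the linker, had the lowest log2 ratio, −0.42 with 4.13 FPKM in the knockdown and 5.87 FPKM in the control, and its intervals overlapped. By FPM it was at −0.80, with 7.59 against 13.9 FPM, and with every overlapping assembled transcript at −0.18. B3GALT6, which adds the second galactose, was the only linker gene of these 5 that was higher, with 6.25 FPKM (5.69 to 6.82) and 4.60 FPKM (4.09 to 5.10), a log2 ratio of 0.37 with intervals apart. B3GAT3, which adds the glucuronic acid that completes the linker, was lower with intervals apart, at 5.96 FPKM (5.28 to 6.97) and 7.86 FPKM (7.03 to 9.03), a log2 ratio of −0.35.

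Of the modifying enzymes, NDST1, GLCE, HS2ST1 and HS6ST1 had log2 ratios between −0.12 and 0.24. NDST1, the more abundant of the pair that removes acetyl groups and adds N-sulfate, had 15.8 FPKM (14.4 to 18.1) in the knockdown and 13.6 FPKM (12.4 to 15.9) in the control, a log2 ratio of 0.20. Its annotated transcript ENST00000261797 had 13.1 and 12.8 FPKM, and a transcript of 2.01 FPKM was assembled in the knockdown only, which runs 1280 nt beyond the gene end. GLCE, the glucuronyl epimerase, had 6.0 FPKM (5.39 to 6.71) and 6.60 FPKM (5.97 to 7.34), a log2 ratio of −0.12. It was the only member with no assembled transcript. Within GLCE, ENST00000261858 had 4.01 against 5.51 FPKM and the shorter ENST00000559420 had 1.99 against 1.09 FPKM, in opposite directions. HS2ST1, the 2-O-sulfotransferase, had 9.40 FPKM (8.65 to 10.3) and 8.91 FPKM (8.16 to 9.87), a log2 ratio of 0.07, and the overlapping gene AC093155.3 on its strand was listed at 0 in both libraries. HS6ST1, which adds the 6-O-sulfate, had 4.50 FPKM (3.90 to 5.52) and 3.64 FPKM (3.26 to 4.48), a log2 ratio of 0.24, and its annotated transcript had 3.57 and 3.64 FPKM.

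The direction of NDST2 also turned with the reading. It had 3.32 FPKM (3.03 to 4.41) in the knockdown and 2.06 FPKM (1.78 to 3.19) in the control, a log2 ratio of 0.50. In fragments it had 16.1 against 7.73 FPM, a log2 ratio of 0.97 with 1 FPM added to both values. Without that addition it was at 209% of the control. The annotated transcript ENST00000309979 carried the whole control value and was listed at 0 in the knockdown, where all of NDST2 lay on an assembled transcript of 4853 nt that retains 1 annotated intron and runs 748 nt beyond the gene end. On the same strand the region also holds AC022400.6, a protein-coding gene that overlaps nearly all of NDST2, listed at 0 in the knockdown and at 1.59 FPKM in the control. Reads of the shared exons can be given to either gene. Summed over both genes, the FPKM was 3.32 in the knockdown and 3.66 in the control, a log2 ratio of −0.11, and in fragments it was 16.1 and 17.2 FPM, a log2 ratio of −0.08. These sums were added after seeing the data, and how reads were shared between both genes was not measured.

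Assembled transcripts were common among the enzymes. They were present in at least 1 library for 9 of 10 members, beside 45.3% of all genes, and in 1 library only for 7 of 10, beside 21.6%. The log2 ratio had opposite signs with and without them for 4 of 10 members (EXT1, EXTL3, NDST2 and HS6ST1), beside 16.1% of all genes. For EXTL3 and HS6ST1, though, the value on at least 1 side was within 0.03 of 0. A matched comparison for transcript length or number of exons was not made.

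RBMS1 can bind AU-rich RNA such as AUAUA, so the letters ATATA were counted in the 3′ UTR of the most abundant annotated transcript of each enzyme, on the strand of the RNA with overlapping matches counted. The windows shown are the first match after the stop codon in EXTL2, NDST1, HS2ST1, GLCE and XYLT2, written 5′ to 3′ from the GENCODE transcripts on GRCh38, with the match in capitals.
EXTL2: tgcttctaggATATAaaattcacat
NDST1: gcactgtgttATATAtatatatata
HS2ST1: ctgggagaaaATATAcatcacctaa
GLCE: ggcttcagttATATAatgtaagcac
XYLT2: aacagaagaaATATAtctctatctc
These lie at chr1:100873785-100873809 on the minus strand for EXTL2, chr5:150554327-150554351 on the plus strand for NDST1, chr1:87104934-87104958 on the plus strand for HS2ST1, chr15:69269868-69269892 on the plus strand for GLCE and chr17:50361123-50361147 on the plus strand for XYLT2. The NDST1 match stands in a run of repeated TA, where overlapping matches raise the count.

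The letters were in the 3′ UTR of 7 of 10 members and in 57.8% of 9436 protein-coding genes. These shares are not matched for length, as the median 3′ UTR was 2751.5 nt in the members and 1025 nt in those genes. Since longer 3′ UTRs hold the letters more often, each member was also set beside genes whose 3′ UTR was within 20% shorter to 25% longer. HS2ST1 had the most, 17 in 5302 nt or 3.21 per kb, and 83.9% of 498 genes with a 3′ UTR of like length had fewer per kb. NDST1 had 14 in 4879 nt, or 2.87 per kb. EXT1 had 7 in 5222 nt, or 1.34 per kb, below the median of 1.60 per kb of 515 genes with a 3′ UTR of like length, of which 97.1% hold the letters. EXTL2 had 4, EXTL3 5, GLCE 6 and XYLT2 1. EXT2, NDST2 and HS6ST1 had 0, whereas 44.4%, 39.8% and 87.1% of genes with a 3′ UTR of like length hold the letters. For the 7 members with a match this share was between 53.6% (XYLT2) and 97.2% (HS2ST1). The count of 7 of 10 can therefore not be read as an excess. A match is a run of letters and not a binding site, and neither binding of RBMS1 nor a relation between these counts and the log2 ratios was tested.

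Outside the 10 enzymes, the heparan sulfate pathway had 1 gene with a large difference, the core protein SDC4. SDC4, or syndecan-4, a transmembrane proteoglycan that carries heparan sulfate chains at focal adhesions, had 22.0 FPKM (21.1 to 22.9) in the knockdown and 102 FPKM (99.9 to 104) in the control, a log2 ratio of −2.16. It has no assembled transcript and had the same log2 ratio with reference transcripts only, and −2.19 by FPM, and over the alternatives tried it lay between −2.22 and −1.99. Among the 8 core proteins with a mean of at least 1 FPKM, 3 were lower and 5 higher. By 2-fold, 1 was lower and 0 were higher, beside 2.8% and 2.96% of all genes. SDC1 was lower, with 8.21 against 11.5 FPKM and a log2 ratio of −0.44. COL18A1, the collagen XVIII core protein, had the highest log2 ratio, 0.83 with 19.8 against 10.8 FPKM, but 0.14 with reference transcripts only. SDC2 had 3.38 against 1.52 FPKM, a log2 ratio of 0.80, and intervals that overlapped. Its log2 ratio passed 2-fold without assembled transcripts, at 1.07, and with a pseudocount of 0.1 FPKM, at 1.10, so that 1 core protein was then at least 2-fold higher.

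Apart from the members, the other gene groups around the enzymes had 0 genes at least 2-fold apart by FPKM. Over all genes 2.8% were at least 2-fold lower and 2.96% higher, so a count of 0 in groups this small says little about them. Of the 10 genes of precursor supply, which make and transport the sugar nucleotides and the sulfate donor, 3 were lower and 7 higher, with a median log2 ratio of 0.17. They ranged from UGDH, which makes the glucuronic acid donor (−0.30), to UXS1, which makes the xylose donor (0.52, but −0.12 with reference transcripts only). Of 7 sulfation and epimerization genes with at least 1 FPKM, 5 are the members described before. The others are the 3-O-sulfotransferases HS3ST3A1, with 1.78 and 1.72 FPKM, and HS3ST3B1, with 6.21 FPKM in both libraries. Of 8 genes of extracellular editing and lysosomal breakdown, 1 was lower, SGSH at −0.37, and 7 were higher, up to 0.55 for NAGLU, with a median of 0.25. IDUA, the lysosomal iduronidase, was at 0.52 but passed 2-fold, at 1.06, with every overlapping assembled transcript, so that 1 gene of this group was then at least 2-fold higher. Of the 12 chondroitin and dermatan sulfate genes, whose chains start on the same linker, 5 were lower and 7 higher, with a median of 0.08. The dermatan enzymes lay at both ends, DSE at −0.61 with 3.48 against 5.85 FPKM and CHST14 at 0.61 with 6.69 against 4.03 FPKM, each with intervals apart.

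**Figure D4:**
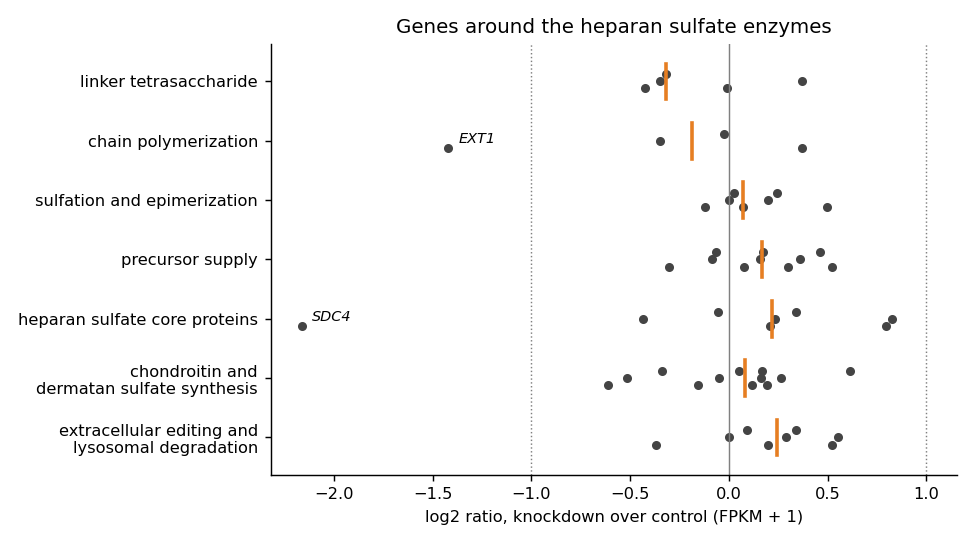
log2 ratio of knockdown over control for each gene with a mean of at least 1 FPKM in 7 groups around heparan sulfate, with the median of each group as an orange bar and dotted lines at a 2-fold difference. EXT1 (−1.42) and SDC4 (−2.16) lie beyond the left dotted line, and all other genes lie between the dotted lines.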

How the data were processed

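RNA-seq was carried out on 2 libraries, and groups were taken from the labels. Per the submitters' processing notes, Bowtie2 2.0.6, TopHat2 2.0.9, Cufflinks 2.1.1 and Cuffdiff 2.1.1 were used. The authors deposited per-library transcripts with their FPKM, its interval and coverage, and a comparison table whose fold change, p-value and q-value columns were not used. Strandedness and read counts are not given in the sources used here, so the depth in reads is unknown.

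Transcripts were joined to GENCODE release 29 (GRCh38) by identifier. Each assembled transcript was given to the gene sharing the most introns (at least 1) on its strand, 6507 in the knockdown and 6583 in the control library, and FPKM and the ends of its interval were summed per gene. The log2 ratio used a pseudocount of 1 FPKM, or of 1 FPM for values in FPM, and counts used genes with a mean of at least 1 FPKM. Python 3.11.15, numpy 2.4.6, pandas 2.3.3 and matplotlib 3.10.9 were used.

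The members and gene lists were chosen with earlier results of these data known. Named genes were the members, RBMS1, B4GALT7, the extremes and every 2-fold change of each list, and the 5 genes nearest to EXT1. The cell type markers came from their own lists, and XYLT1 and the glypicans were named outside this rule. SDC1, HS3ST3A1, HS3ST3B1, SDC2, IDUA, B3GAT3, AC022400.6 and AC093155.3 were named after their values were seen. Alternatives were 2 pseudocounts, 3 scalings, 5 ways of summing transcripts and 2 filters.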

Additional observations from a re-analysis of the deposited data

Results flagged for a closer look

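The authors' comparison table, which no result above uses, lists 7236 transcripts, and 2 of them belong to the enzymes. EXTL3 transcript ENST00000517738 is listed there at 4.53 FPKM in the knockdown and 0 in the control, and EXTL2 transcript ENST00000535414 at 0.403 FPKM in the knockdown and 0 in the control. Both stand out because they are above the control in data outside the main measurement. In the per-library files both transcripts are listed at 0 in both libraries, so the quantifications differ, and the difference was not tested. EXT1 has no transcript in that table.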

How the results depend on the processing

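No paired analysis was possible because each group holds a single library, and for the same reason no replicate could be left out. The EXT1 log2 ratio of −1.42 became −1.21 with a pseudocount of 5 FPKM, −0.70 with every overlapping assembled transcript, −0.58 by FPM and −0.0081 by FPM with every overlapping transcript, and it reversed to 0.84 both without assembled transcripts and for the dominant reference transcript alone. By overlapping transcripts and by FPM, 0 members were at least 2-fold lower. With reference transcripts only the 1 such member was NDST2, listed at 0, and not EXT1. RBMS1 was at −1.73 with a pseudocount of 5 FPKM. The median of the members ranged from −0.03 to 0.03 over 12 alternatives, and 0 members were at least 2-fold higher in each. By FPM this holds only with 1 FPM added to both values, as NDST2 was at 209% of the control without it.

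Under both readings without assembled transcripts, the log2 ratio reversed to 0.69 for ARL3, 0.97 for CSTB, 0.61 for FKBP4 and 0.57 for ZNF593, and to 0.61 and 0.84 for ECI1. By the median over introns ECI1 reversed to 0.15. By FPM ARL3 reversed to 0.052 and CSTB to 0.015. Reversal by reference transcripts was built into the choice of these 5 genes. No scaling moved the median of all genes by more than 0.03. With no replicates and unknown depth, no difference given here can be read as a difference between conditions, whether the intervals overlap or are apart.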

Other observations

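Single-exon assembled transcripts inside introns were found in at least 1 library for 8 of the 10 enzymes, beside 40.4% of the genes with a mean of at least 1 FPKM. Gene length, which bears on this share, was not matched. NDST1 had 11 over 5547 nt in the knockdown, with a mean of 2.23 FPKM, and 17 over 12305 nt in the control, with a mean of 2.54 FPKM. EXTL2 had 7 and 8 of them, with means of 2.03 and 1.45 FPKM. Among 128 genes with at least 50000 nt so covered in both libraries, the median log2 ratio of the mean FPKM was −0.08, and EXT1 was at −0.04.

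HS3ST1, a 3-O-sulfotransferase of the kind that makes binding sites for antithrombin, stayed below a mean of 1 FPKM and was not counted in any group. It had 1.26 FPKM (1.08 to 1.83) in the knockdown and 0.592 FPKM (0.501 to 1.09) in the control, with intervals that overlapped, and was named after its values were seen. Of the glypican core proteins, GPC1 had 4.80 and 4.02 FPKM, and GPC2, GPC3, GPC4, GPC5 and GPC6 each had a mean below 1 FPKM.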
